A study of Mus musculus with 2 samples.

Results

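Zbtb genes encode transcription factors that join an N-terminal BTB domain to C2H2 zinc fingers, and their messenger RNAs were measured here in mouse regulatory T cells. Members were the protein-coding genes of the GENCODE M21 annotation whose symbol begins with Zbtb and a number, which gave 41 of 22028 protein-coding genes, on 15 chromosomes. A search of their annotated coding sequences found at least 1 C2H2 finger in 40 of them. The exception was Zbtb8os, which is named for its place on the strand opposite Zbtb8a and encodes archease, a cofactor of the tRNA ligase, so it is counted by the rule but is not a factor of this family. Polyadenylated RNA came from a male adult mouse aged 9 weeks and was sequenced as 2 technical replicate libraries of biological replicate 1. The strain, Foxp3GFP-DTRCD4CreERT2R26tdTomato, carries by its name a GFP and diphtheria toxin receptor allele at Foxp3, a tamoxifen-inducible Cre at Cd4 and a tdTomato allele at the R26 locus. The labels say neither how the cells were isolated nor whether tamoxifen was given, and leave unsaid if both libraries began from the same RNA. There was 1 group and no condition to compare, so the text gives levels and then sets the libraries against each other. Every p-value below measures counting error between these libraries only.

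The BTB domain lets these proteins pair with each other and recruit corepressor complexes built on Ncor1 and Bcor, or the ubiquitin ligase scaffold Cul3, while the zinc fingers read DNA. Several members are switches of lymphocyte fate: Zbtb7b (ThPOK) directs thymocytes to the CD4 lineage, Zbtb16 (PLZF) directs innate-like T cells, and Zbtb46 marks conventional dendritic cells. Regulatory T cells, the Foxp3-dependent branch of the CD4 lineage, hold other immune cells in check.

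The libraries held 20891069 and 18571065 expected counts in genes. The cell type label was checked against defining markers, and all 5 regulatory T cell markers and all 6 T cell markers were detected, Foxp3 itself having 88.63 and 83.61 TPM in technical replicates 1 and 2 (the order of paired values throughout). TPM is transcript abundance scaled for length and depth. Detection here means that both libraries reached 1 TPM. Markers of other cells were found too. Of 5 erythroid markers 4 were detected, with a sum of 179.9 and 215.6 TPM, and Hbb-bs alone had 66.73 and 79.53. Of 6 monocyte or macrophage markers 4 were detected, with a sum of 31.5 and 24.6 TPM. The source of this RNA was not tested. In a bulk sample, fewer cells of a type and less RNA per cell cannot be told apart.

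Most of the family was present at low to moderate level. Of the 41 members, 34 were detected (82.9%), against 47.5% of all protein-coding genes, and 33 of these 34 encode zinc fingers. The median of the members' mean TPM was 11.7, against 0.735 over all protein-coding genes. Among detected genes alone the order was the other way, with a median of 13.9 TPM for members and 25.5 TPM for protein-coding genes. A mean of at least 10 TPM was reached by 23 members, of at least 20 TPM by 10 members and of at least 50 TPM by 3 members. The 40 finger-encoding members summed to 557.5 and 634.2 TPM, and the 3 most abundant of them took 33.2% and 30.9% of these sums. Across the 40 members with a level above 0, Spearman's rho of TPM between the libraries was 0.947, a description over genes that share the same libraries.

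**Figure D1:**
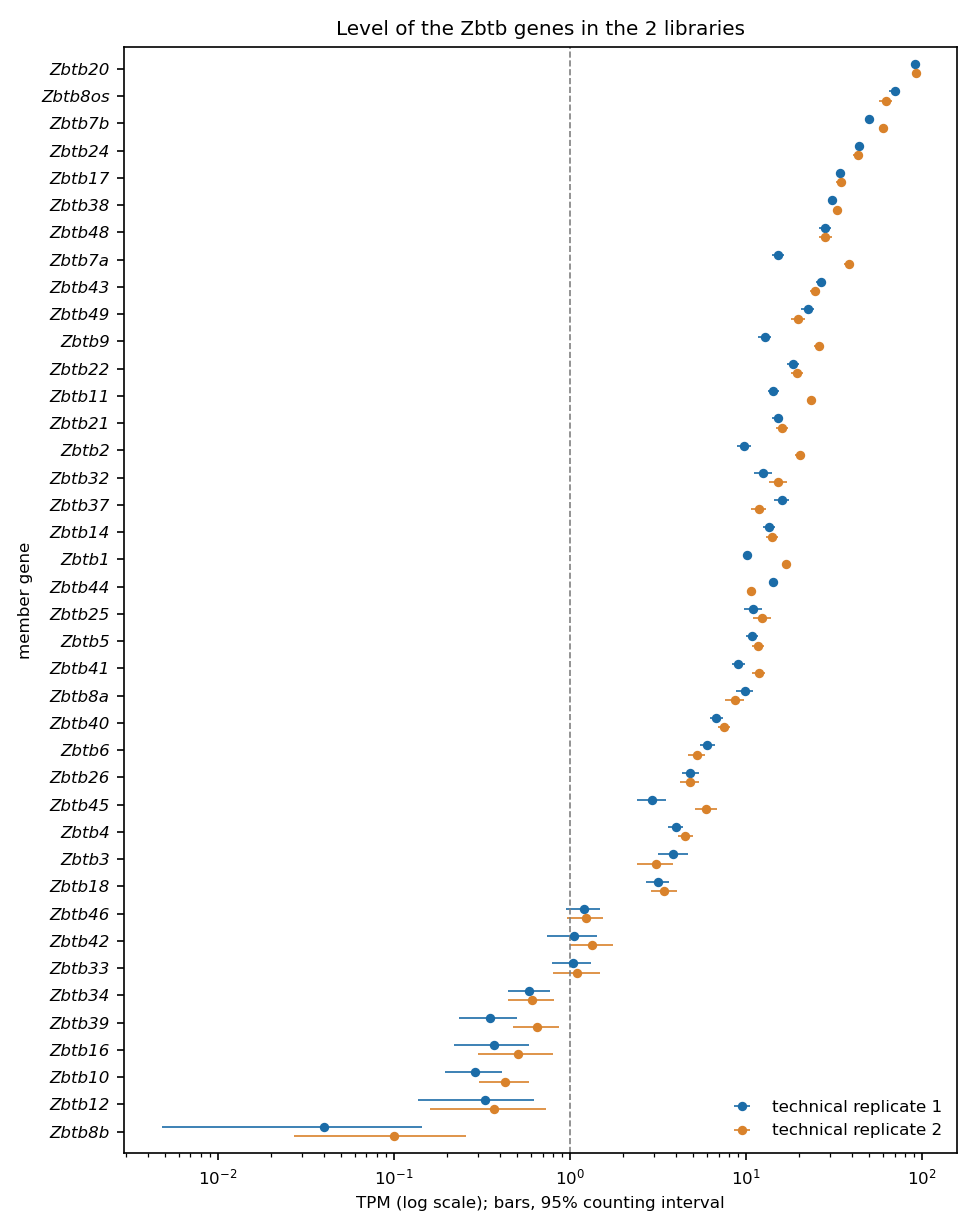
TPM of each Zbtb gene (log axis) in technical replicate 1 (blue) and 2 (orange), with 95% Poisson intervals that cover counting error only and a dashed line at the detection level of 1 TPM. Zbtb20 was the most abundant, Zbtb7a, Zbtb9, Zbtb2, Zbtb11, Zbtb1 and Zbtb45 had visibly separate points, and Zbtb7c, with 0 counts in both libraries, is not drawn.

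Zbtb20 was the most abundant member, at 90.81 and 92.76 TPM (mean 91.8 ± 1.38, SD, n = 2 technical libraries). It ranked 1901 among protein-coding genes, and its counting intervals overlapped between libraries. Zbtb20 is a repressor best known from liver, hippocampus and plasma cells. Zbtb7b, which fixes the CD4 fate by repressing CD8 lineage genes such as Runx3, had 50 and 60 TPM (55.0 ± 7.07, n = 2). Its counting intervals, 47.9 to 52.1 TPM and 57.5 to 62.6 TPM, did not overlap. Zbtb7a (LRF), a close relative that shares work with Zbtb7b in CD4 T cells, had 15.22 and 38.27 TPM. It was the member with the widest spread in TPM (26.7 ± 16.3, n = 2), and the libraries did not overlap. The third gene of that subfamily, Zbtb7c, had no count in either library, where 3 counts would have been 0.0628 and 0.0741 TPM.

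The annotated starts of these genes were compared with the transcripts that carried their abundance, since Zbtb7b and Zbtb32 each have a pair of alternative promoters. Starts within 500 bases of each other were put in 1 group. In Zbtb7b, transcripts from the proximal starts (chromosome 3, 89387189 to 89387671, minus strand, mm10) took 41.5 and 44.3 TPM, or 82.9% and 73.8% of the gene. Those from the distal starts, 89393342 to 89393678, took 8.42 and 15.7 TPM. By TPM the proximal group was thus the larger in both libraries, and most of the gain in technical replicate 2 lay in distal transcripts. Among the distal transcripts were short models of 403 and 544 bases that hold no finger. The authors' posterior mean percent, a second estimate of each share, divided the gene otherwise. By it the proximal Zbtb7b-203 had 57% and 59.7%, against 77.1% and 70.0% by the percent. Zbtb7b-202, with a start at 89392069 and 0 TPM, had 17.6% and 8.90%. Zbtb32 (ROG), a repressor of the Gata3 programme that is induced in activated lymphocytes, had 12.58 and 15.24 TPM. Its internal start at 30592942 on chromosome 7 (minus strand) took 83.7% and 88.8% of that, and the upstream starts at 30598869 to 30598909 took 16.3% and 11.2%. The transcript from the internal start, Zbtb32-202, holds 3 fingers, against 2 in Zbtb32-201 from the upstream start. Zbtb20 had no dominant start: its abundance was divided over 8 groups of starts, the largest of which took 26.9% and 27.5%. The start that RefSeq lists for Zbtb20, at 43247284 on chromosome 16 (plus strand), took 4.88% and 14.6%.

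**Figure D2:**
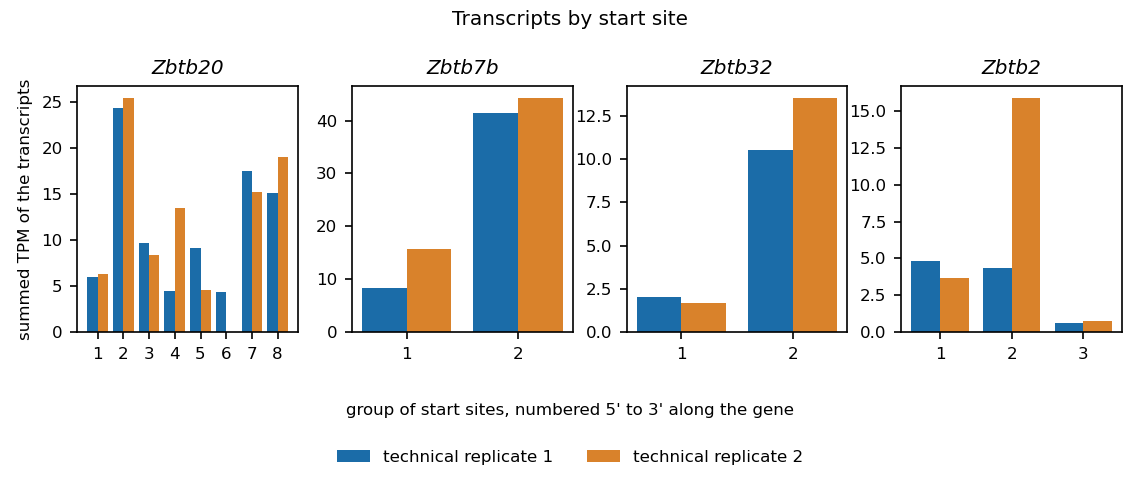
Summed TPM of transcripts (vertical axis, a separate scale for each gene) by group of start sites, numbered from the 5′ to the 3′ end of the gene, in technical replicate 1 (blue) and 2 (orange), for groups that reached 0.5 TPM in either library. Zbtb7b and Zbtb32 drew mostly on their downstream starts, Zbtb20 was spread over 8 groups, and for Zbtb2 the downstream start had 4.36 and 15.9 TPM.

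The promoters of these genes are shown because those of Zbtb7b, Zbtb32 and Zbtb20 hold fewer CpG than most of the family, with Zbtb7a beside them as a CpG-rich relative. Each sequence is the RefSeq (GRCm38.p6) window of 250 bases before a listed start, on the strand of the gene, with CpG dinucleotides in capitals. For the distal Zbtb7b start only the 98 bases outside annotated exons are given. A listed start need not be that of the leading transcript. The proximal Zbtb7b window precedes the start of Zbtb7b-204, at 5.85% and 3.86% of the gene, whereas Zbtb7b-203, at 77.1% and 70.0%, starts at 89387189. The Zbtb7a window precedes the start of Zbtb7a-201, at 36.1% and 16.1%, whereas Zbtb7a-203, at 63.9% and 66.5%, starts at 81136549.
Zbtb7b proximal, chr3:89387672-89387921, minus strand: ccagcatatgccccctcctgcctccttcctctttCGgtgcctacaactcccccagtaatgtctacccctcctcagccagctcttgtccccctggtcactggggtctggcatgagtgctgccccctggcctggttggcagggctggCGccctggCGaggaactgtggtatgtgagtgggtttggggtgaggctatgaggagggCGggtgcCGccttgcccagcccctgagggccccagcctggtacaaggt
Zbtb7b distal, chr3:89393379-89393476, minus strand: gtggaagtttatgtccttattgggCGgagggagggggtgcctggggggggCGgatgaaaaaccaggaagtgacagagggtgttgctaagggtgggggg
Zbtb32 internal, chr7:30592943-30593192, minus strand: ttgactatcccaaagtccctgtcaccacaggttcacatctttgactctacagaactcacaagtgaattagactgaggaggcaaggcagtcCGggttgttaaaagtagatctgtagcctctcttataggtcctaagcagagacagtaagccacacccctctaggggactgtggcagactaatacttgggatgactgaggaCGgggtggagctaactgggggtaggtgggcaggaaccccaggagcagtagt
Zbtb32 upstream, chr7:30598910-30599159, minus strand: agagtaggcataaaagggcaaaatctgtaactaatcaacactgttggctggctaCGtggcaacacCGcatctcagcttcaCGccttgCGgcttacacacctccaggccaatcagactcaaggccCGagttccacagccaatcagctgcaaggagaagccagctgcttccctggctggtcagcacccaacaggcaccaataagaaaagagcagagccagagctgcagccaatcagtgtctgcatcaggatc
Zbtb20, chr16:43247034-43247283, plus strand: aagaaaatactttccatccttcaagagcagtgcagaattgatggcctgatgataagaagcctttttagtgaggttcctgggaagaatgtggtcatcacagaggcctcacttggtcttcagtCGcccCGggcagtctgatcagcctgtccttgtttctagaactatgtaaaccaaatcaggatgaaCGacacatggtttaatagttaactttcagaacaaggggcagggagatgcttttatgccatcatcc
Zbtb7a, chr10:81136021-81136270, plus strand: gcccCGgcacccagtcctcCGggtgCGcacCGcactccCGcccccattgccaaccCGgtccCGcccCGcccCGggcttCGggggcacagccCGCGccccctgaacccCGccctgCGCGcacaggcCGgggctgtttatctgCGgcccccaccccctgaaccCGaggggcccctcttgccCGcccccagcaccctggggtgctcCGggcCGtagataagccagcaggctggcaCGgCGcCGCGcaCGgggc

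RefSeq windows were matched for 36 of the 41 members, with 49 windows in all. The median window of the family held 20 CpG dinucleotides, against 6 over 32851 windows of all genes, and 35 of the 49 (71.4%) held at least 10, against 37.8% of all windows. The 250-base Zbtb7b windows held 5 (proximal) and 7 (distal), those of Zbtb32 held 2 (internal) and 5 (upstream), and that of Zbtb20 held 3. They belonged to the 6 members without any window of 10 CpG or more, together with Zbtb3, Zbtb46 and Zbtb8a. The only Zbtb46 window lies before a start, at 181424388 on chromosome 2, whose transcripts had 0 TPM in both libraries. The starts that carried its abundance, 181459379 to 181459426, had no window. Zbtb7a, with 26, was like most of the family. All 4 windows matched to undetected members held at least 10, and CpG-rich windows were thus found at members with and without detected RNA. A set of 5 short words was searched on both strands, and matches to different words may share bases. GGGCGG, the GC box of Sp and Kruppel-like factors, was in 59.2% of member windows and 32.7% of all windows. TGTGGT, a Runx core word, was in 18.4% against 14.0%. The proximal Zbtb7b window, the internal Zbtb32 window and the Zbtb20 window each held 1. TATAAA was in 12.2% against 12.4%, the ETS word CCGGAAGT in 6.12% against 2.88%, and the cyclic AMP response word TGACGTCA in 2.04% against 1.55%. Such shares count windows, so a gene with several listed starts counts more than once. For Zbtb18, overlapping windows that begin at 177444403 and 177444411 on chromosome 1 both held TATAAA. These matches are letters in a window and not measured binding.

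The remaining members with roles in lymphocytes ranged from moderate to barely present, and 9 of the 10 on that list were detected. Zbtb24, whose human counterpart is mutated in an immunodeficiency with centromere instability, had 44.13 and 43.21 TPM. Zbtb17 (Miz-1), a partner of Myc that is needed for early lymphocyte development, had 34.37 and 34.50 TPM. Both were close between the libraries, with overlapping intervals. Zbtb1, which lymphocyte progenitors need to survive, had 10.14 and 16.79 TPM, with technical replicate 2 higher and no overlap. Zbtb25 had 11.04 and 12.38 TPM, with overlapping intervals. Zbtb46 lay at the edge of detection, at 1.20 and 1.23 TPM. Zbtb16 was not detected, at 0.37 and 0.51 TPM from 18 counts in each library, and its 95% counting intervals ended at 0.585 and 0.806 TPM.

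Markers of the cell types that express these members elsewhere are given beside them, and their part in the levels was not tested. Of 10 dendritic cell markers, 4 were detected, and the list summed to 217.6 and 198.7 TPM, of which Cd74 alone made 181.3 and 170.9. The other 3 detected were H2-Ab1 at 15.79 and 11.0 TPM, H2-Aa at 12.22 and 7.53, and Ccr9 at 6.70 and 8.54. Below detection, Xcr1 had 23 and 12 counts, Flt3 3 and 2, and Clec9a 2.83 and 0, beside 84 and 71 counts of Zbtb46. For B and plasma cells, relevant to Zbtb20 and Zbtb32, 5 of 9 markers were detected and the list summed to 86.2 and 120.3 TPM. Xbp1 and Prdm1, which T cells also express, made up 26.1 and 58.1 TPM and 16.5 and 19.3 TPM of these sums. Of the B cell receptor genes, Cd79b had 32.71 and 32.45 TPM and Cd79a 5.89 and 6.29, and the B lineage factor Pax5 had 0.46 and 0.56. For innate-like T and NK cells, relevant to Zbtb16, 6 of 9 markers were detected with a sum of 38.1 and 38.6 TPM, led by Tcrg-C1 at 16.0 and 12.3 TPM, and Ncr1 had 1 and 0 counts.

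Among the readers of methylated DNA all 3 members were detected, at very different levels. Zbtb38 had 30.99 and 33.09 TPM, Zbtb4 had 3.99 and 4.54 TPM, and Zbtb33 (Kaiso) had 1.04 and 1.10 TPM. Zbtb38 was thus the dominant one in both libraries. Of 5 members tied to p53 and the cell cycle, all were detected. Besides Zbtb17, these were Zbtb49, an activator of the p21 gene, at 22.43 and 19.79 TPM, Zbtb2, a repressor of the p53 pathway, at 9.81 and 20.31 TPM, Zbtb5, another repressor of the p21 gene, at 10.86 and 11.70 TPM, and Zbtb4. Zbtb2 alone of these 5 had libraries that differed by the test given below. Of the telomere-binding pair, Zbtb48 (TZAP), which trims long telomeres, had 28.13 and 28.28 TPM, and Zbtb10 was not detected, at 0.29 and 0.43 TPM.

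The other members at 10 TPM or more are less studied in T cells. Zbtb8os had 69.94 and 62.32 TPM, Zbtb43 26.55 and 24.70, and Zbtb22 18.51 and 19.59. Zbtb9 had 12.81 and 25.98 TPM, and Zbtb11, a factor linked to mitochondrial function, had 14.34 and 23.46. In both, technical replicate 2 was higher without overlap. Zbtb21 had 15.17 and 16.05 TPM, Zbtb14 13.52 and 14.15, and Zbtb41, which has the most fingers of the family at 14, 9.06 and 11.84. Zbtb37 had 15.98 and 11.82 TPM, and Zbtb44 had 14.25 and 10.72 TPM. These last 2 were the members at this level that were higher in technical replicate 1 without overlap of their intervals, although for Zbtb37 the log2 ratio of scaled counts was 0.16 and not called. Zbtb41 was higher in technical replicate 2 without overlap of its TPM intervals, and its log2 ratio of counts, 0.10, was not called either. A further 11 detected members lay between 1 and 10 TPM, from Zbtb8a at 9.88 and 8.63 TPM down to Zbtb42 and Zbtb33.

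The 7 members that were not detected ranged from 0 to 0.65 TPM. Zbtb34, Zbtb39, Zbtb16, Zbtb10 and Zbtb12 had 8 to 54 counts in each library, Zbtb8b had 2 and 4 counts, and Zbtb7c had none. The number of fingers did not order the levels: Spearman's rho between the finger count and the mean TPM was 0.18 over 40 members, a description. The median finger count was 4 in detected and 3 in undetected members, and it ranged from 1 to 14.

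Transcript tables showed whether a member's abundance lay in coding transcripts. Protein-coding transcripts took a median of 93.8% and 96.3% of a member's TPM in the 31 detected members with 2 or more annotated transcripts, against 83.5% and 84.0% in 9682 such protein-coding genes. In 17 of the 31 they took at least 90% in both libraries. Zbtb8os alone was below 50% in both, at 26.0% and 29.4%, with the rest in models of nonsense-mediated decay, a pathway that destroys transcripts with early stop codons. Zbtb49 was similar in kind, with 50.1% and 54.1% coding and 40.3% and 33.6% in decay models, and for Zbtb48 the coding share was 48.2% and 53.6%. Zbtb20 was 57.4% and 60.8% coding, and retained-intron models such as Zbtb20-218, at 16.7% and 15.9%, held part of the rest. The division of reads among overlapping transcripts is an estimate of the authors' quantification, not a direct count.

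**Figure D3:**
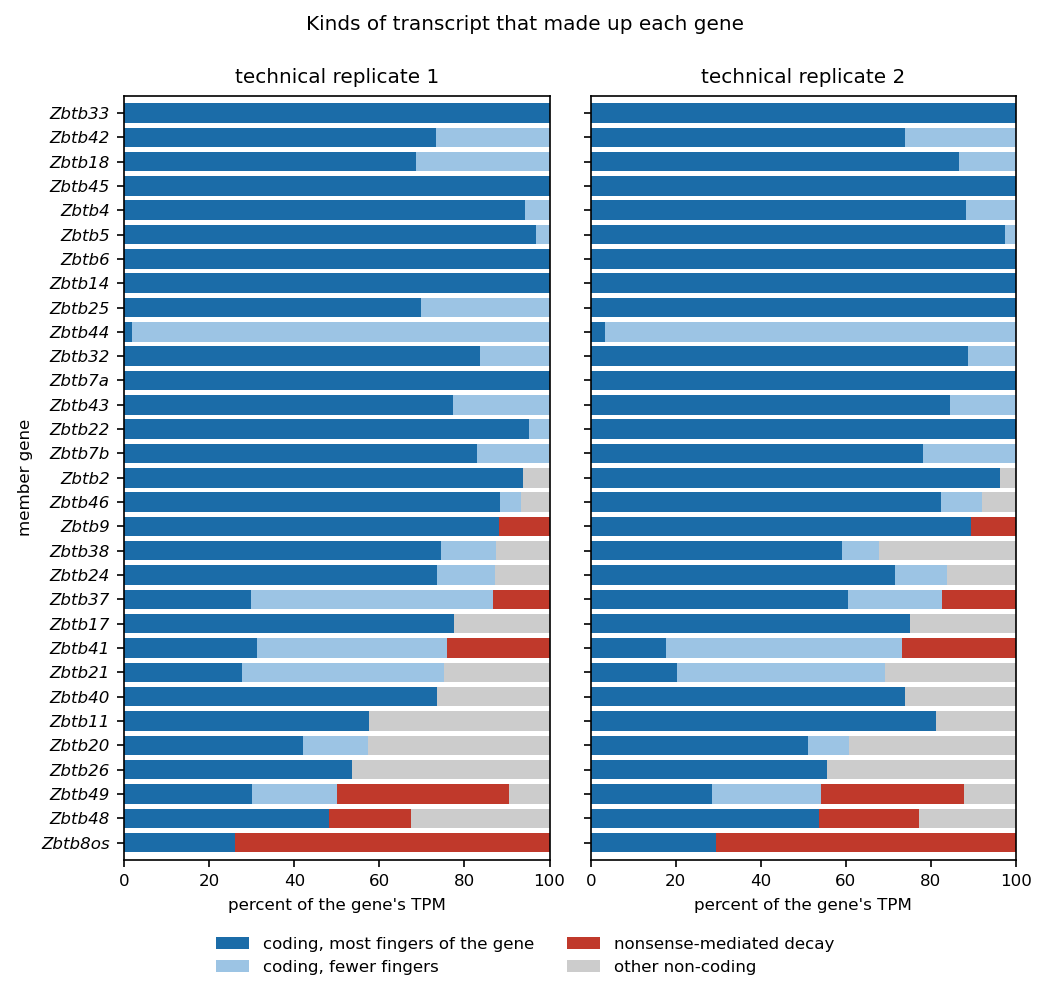
Share of each gene's TPM (horizontal axis, percent) by kind of transcript in technical replicates 1 and 2, for the 31 detected members with 2 or more annotated transcripts; dark blue is coding transcripts with the most C2H2 fingers found for that gene, light blue coding transcripts with fewer. Zbtb8os, which has no finger and so is drawn dark blue where coding, is mostly in decay models, and Zbtb44 is almost all light blue.

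In some members the leading coding transcript held fewer than the full set of fingers, as found by a pattern search that can miss irregular fingers and cannot see past the ends of incomplete models. Zbtb44 was the extreme, with 98.1% and 96.7% of its TPM in Zbtb44-201, which holds 2 fingers, while the models with 4 fingers took 1.89% and 3.36%. For Zbtb41 the transcript with all 14 fingers, Zbtb41-201, took 31.1% and 17.7%, and a model with 11 took 44.9% and 55.4%. In Zbtb21 the model with 6 fingers took 27.7% and 20.2%, and Zbtb21-201, with 3, took 33.6% and 32.9%. By the authors' posterior mean percent the lead in Zbtb21 was not kept: the model with 6 fingers had 23.8% and 14.1%, Zbtb21-201 had 23.1% and 24.2%, and a retained-intron model, with 26.8%, led in technical replicate 2.

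The leading transcript was the same in both libraries in 26 of the 31 members, against 86.0% of comparable protein-coding genes. The 5 that differed were Zbtb20, Zbtb2, Zbtb37, Zbtb14 and Zbtb33. In Zbtb14 the lead passed from Zbtb14-202, at 63.9% in technical replicate 1, to Zbtb14-201, at 67.1% in technical replicate 2, and their starts lie 269 bases apart. In Zbtb2 it passed from Zbtb2-202, at 49.4%, to Zbtb2-201, at 78.3%. In Zbtb37 a model of 363 bases without a finger, Zbtb37-207, led in technical replicate 1 at 44.5%, and the 3-finger Zbtb37-201 led in technical replicate 2 at 48.6%. With the authors' posterior mean percent in place of the percent, 21 of the 31 had the same lead.

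Some members lie next to each other in the genome, and some overlap other genes. Zbtb25 and Zbtb1 stand head to head on chromosome 12, 663 bases apart. Zbtb6 and Zbtb26 overlap on the same strand of chromosome 2 and share 449 exon bases, and Zbtb8os and Zbtb8a overlap by 920 bases on opposite strands of chromosome 4. Zbtb9 shares 84.4% of its exon bases with Ggnbp1 on the same strand, a testis gene listed at 0.09 and 0.34 TPM. Zbtb37 shares 15.6% of its exon bases with Serpinc1 on the opposite strand, listed at 14.16 and 16.21 TPM. No source used here gives the strand setting of the quantification. Levels of Zbtb8a beside the much more abundant Zbtb8os, and of Zbtb37 beside Serpinc1, are therefore uncertain. The splits of Zbtb6 from Zbtb26 and of Zbtb9 from Ggnbp1 are uncertain at any strand setting, because each pair shares exon bases on the same strand. Expected counts were not whole, to within 0.005, in either or both libraries for 12 of the 41 members.

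Of 39 members with at least 10 counts over both libraries, 11 differed between the libraries, against 34.7% of all genes tested. The call was an adjusted p under 0.05 by an exact binomial test of the counts, with Benjamini-Hochberg adjustment over 16553 genes. Of the 39 members, 9 were higher in technical replicate 2, against 21.6% of all genes, and 2 were lower, against 13.0%. At these numbers the share that differed was close to that of all genes. The median log2 ratio, technical replicate 2 over technical replicate 1, was 0.10 over members and 0.02 over all genes. Of the 39 members tested, 7 were called with a log2 ratio of at least 0.58, a 1.5-fold difference. All 7 were higher in technical replicate 2. Among all genes tested, 11.8% were called higher at that size and 3.00% lower.

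Zbtb9 had 510.73 and 874.89 expected counts, a log2 ratio of 1.01 ± 0.08 (counting SE, adjusted p = 3.29e-36, exact binomial test). Zbtb2 had 462.37 and 777.93 counts, a log2 ratio of 0.98 ± 0.08. Zbtb45, at 118 and 193 counts, had 0.94 ± 0.17. Zbtb7a followed with 703 and 1125 counts and 0.91 ± 0.07 (adjusted p = 3.68e-39, exact binomial test). With the trend on transcript GC content removed, that ratio was 0.29. Its TPM differed more than its counts did, because the added counts were assigned to short models: the transcript of 5938 bases, Zbtb7a-201, kept 457.13 and 434.92 counts while a model of 1841 bases with the same coding length went from 245.87 to 545.62. Zbtb39, a low member at 29 and 46 counts, had 0.89 ± 0.34 (adjusted p = 0.0319, exact binomial test). Zbtb11 had 815.96 and 1259.79 counts and 0.86 ± 0.07. In Zbtb11 the gain lay in the coding transcript Zbtb11-201, from 567.04 to 1110.67 counts, and the retained-intron models did not share it. Zbtb1 had 1738 and 2439 counts and 0.72 ± 0.05 (adjusted p = 1.41e-56, exact binomial test), while its head-to-head neighbour Zbtb25, at 279 and 277 counts, had 0.22 ± 0.12 and did not pass (adjusted p = 0.165, exact binomial test).

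**Figure D4:**
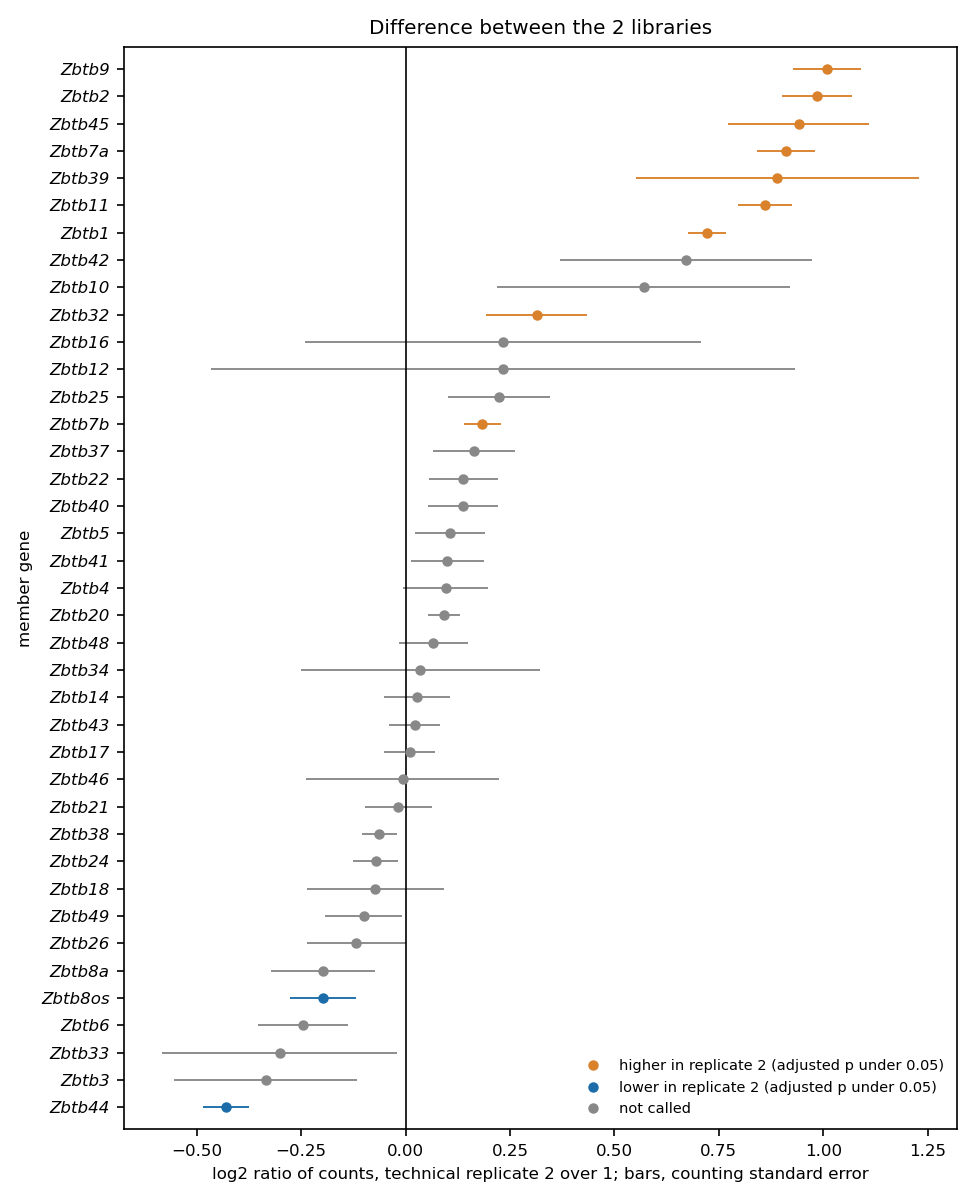
Log2 ratio of expected counts, technical replicate 2 over 1 (horizontal axis; bars are the counting standard error), for the 39 members tested. Members called higher are orange, those called lower are blue and the others grey; 7 members stand at 0.72 to 1.01 while most lie near 0.

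The other 4 differences were small. Zbtb32 was higher in technical replicate 2 by 0.31 ± 0.12 (adjusted p = 0.0297, exact binomial test) and lost the call in several settings. Its adjusted p by the exact binomial test was 0.0576 with DESeq2 size factors, 0.0939 with total counts, 0.315 in the older table and 0.379 with the GC trend removed, where the ratio was 0.15. Zbtb7b was higher by 0.18 ± 0.04 (adjusted p = 0.000176, exact binomial test), but with the trend on transcript GC content removed its log2 ratio was -0.16 (adjusted p = 0.00181, exact binomial test), so its direction depended on that setting. Zbtb44 was lower, with 1748 and 1102.63 counts and -0.43 ± 0.06, whereas the older gene table gave 53 and 90 counts and a ratio of 0.87. Zbtb8os was lower at -0.20 ± 0.08 (adjusted p = 0.0408, exact binomial test). The remaining 28 members, among them Zbtb20, Zbtb24, Zbtb17, Zbtb38 and Zbtb48, did not pass. All of this rests on counting error alone. The dispersion measured over all genes between these libraries was a coefficient of variation of 21.6%. With it, edgeR's exact test called 0 members and 103 of all genes at an adjusted p under 0.05. That dispersion was itself estimated from the difference between these libraries, taken as 1 group. Few calls were therefore built in, and they cannot show that the members were alike. At an assumed dispersion of 0.01 the same test called 6 members, against 11 by the exact binomial test, also after adjustment. Without adjustment, 14 members had a p under 0.05 by the exact binomial test.

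The members that were higher in technical replicate 2 carried GC-rich stretches. GC content was measured in the richest 200-base window of each transcript and averaged per gene by abundance. It had a median of 71.1% in the 9 higher members, from 68.0% to 77.5%, 65.3% in the 28 not called and 62.5% over all genes tested. Over whole transcripts the medians were closer, at 51.7%, 50.1% and 49.4%. Zbtb1 showed the contrast within 1 gene: its only annotated transcript, of 12190 bases, is 41.2% GC, but bases 49 to 248 are 77.5% GC. Spearman's rho between local GC and the log2 ratio was 0.45 over members and 0.36 over all genes, a description of features from the same libraries. The richest window of the leading transcript lay within the first 250 bases in 5 of the 9 higher members and in 19 of the 28 not called. Zbtb44, with 78.4% local GC and a lower count in technical replicate 2, went against the pattern. Among members not called, Zbtb4, at 77.0%, Zbtb46, at 74.5%, and Zbtb22, at 72.3%, had log2 ratios of 0.10, -0.01 and 0.14. Zbtb33, at 72.3%, had -0.30, whereas Zbtb42, at 73.5%, had 0.67 and Zbtb10, at 87.5%, had 0.57, each from few counts. With the trend on local GC removed, 9 members were higher and 7 lower, but the ratios and some of the calls moved. Zbtb1 went from 0.72 to 0.26, Zbtb7a from 0.91 to 0.43, Zbtb45 from 0.94 to 0.45 and Zbtb11 from 0.86 to 0.52. Zbtb9, at 0.66, and Zbtb2, at 0.60, kept both the call and a log2 ratio of at least 0.58, Zbtb39, at 0.71, and Zbtb32, at 0.14, lost the call, and Zbtb7b reversed to -0.26. The part of base composition in the differences was not tested.

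**Figure D5:**
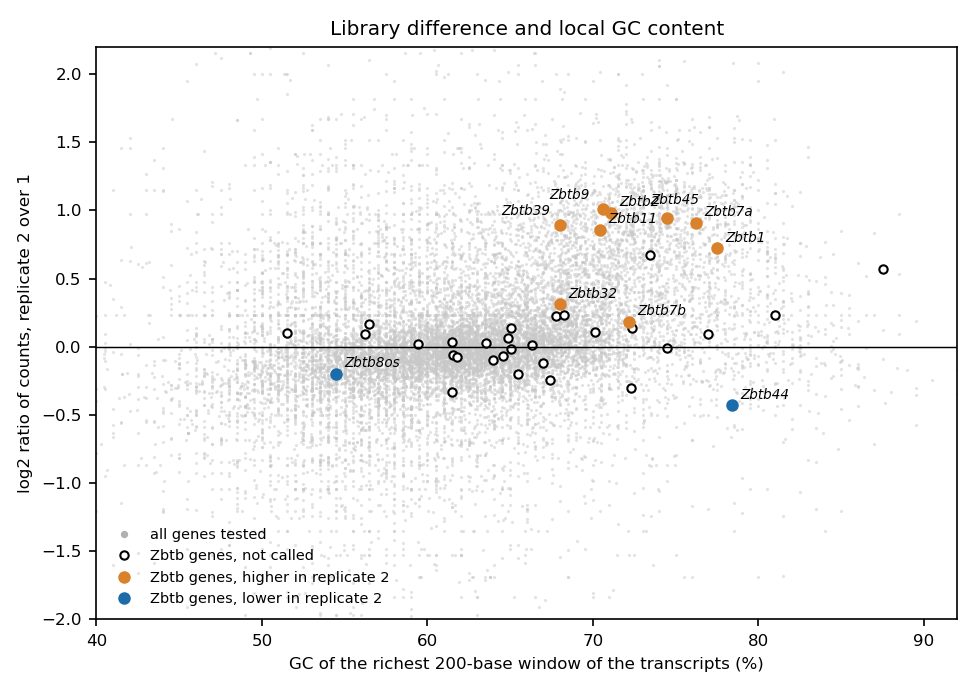
Log2 ratio of counts, technical replicate 2 over 1 (vertical axis), against the GC content of the richest 200-base window (horizontal axis, percent), for all genes tested (grey; a few lie outside the axes) and for Zbtb genes (circles). The 9 members called higher all lie between 68.0% and 77.5%, beside members of similar GC content that were not called.

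Messenger RNAs of related genes and of known partners of this family were mostly detected. Of 8 genes that encode the same domains under other names, 5 were detected: Mynn at 43.17 and 39.26 TPM, Zfp131 at 16.43 and 23.73, Bcl6, the repressor of follicular helper T cells, at 20.69 and 14.32, Gzf1 at 15.88 and 17.40, and Patz1 at 14.25 and 15.66. All 15 corepressor and ubiquitin ligase genes were detected, and the library test called 6 of them higher in technical replicate 2 and 2 lower, where 21.6% and 13.0% of all genes were. Hdac1 had 302.5 and 303.1 TPM, Hdac3 90.58 and 86.34, Ncor1 79.05 and 84.51, Bcor 23.45 and 24.93, and Cul3 16.36 and 15.44. Of 11 partners in the choice of the CD4 lineage, 10 were detected. In technical replicate 2, 5 of the 11 were higher and 3 lower, against the same 21.6% and 13.0%. Cd4 had 248.2 and 247.1 TPM and Gata3, which acts upstream of Zbtb7b in the thymus, had 68.65 and 100.5. Runx3, which Zbtb7b opposes, had 3.91 and 8.41 TPM, below Zbtb7b in both libraries, while of the CD8 chains Cd8b1 had 25.47 and 22.74 TPM and Cd8a, at 0.71 and 0.66, was not detected.

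The older gene table, made on GENCODE M4, was compared for genes with at least 100 newer and 10 older counts over both libraries. The median ratio of newer to older counts was 2.12 over 9783 genes and 2.08 over the 33 members that met these minimums. Among those 33, Zbtb44 departed most, at 19.9, followed by Zbtb46 at 11.1, Zbtb26 at 5.36 and Zbtb8os at 5.14. Zbtb34 had too few older counts for that comparison, with 54 and 47 newer against 4 and 4 older counts, and Zbtb10 had too few newer ones, with 30 and 38 against 2 and 11. The levels of all 6 differed more between the tables than the median gene's did, and the reason was not tested.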

How the data were processed

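Polyadenylated RNA from 1 biological replicate was measured in 2 technical replicate libraries. Per the text descriptions deposited with the tables, the newer gene and transcript tables were made on mm10 with GENCODE M21 and an older gene table with GENCODE M4. No source used here names the aligner, the quantifier or the strand setting. The authors deposited expected counts (estimated reads, rounded here for tests), TPM, FPKM (not used here), posterior mean TPM and its bounds (a signal per the file headers), each transcript's percent of its gene, and whole-number counts in the older table. Rows naming no gene held 0.307% and 0.242% of expected counts and were left out. Older counts summed to 6047614 and 5889818. The floor was 3 counts, and 95% intervals are exact Poisson intervals. Both cover counting error only, because copies made by PCR were not told apart.

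Libraries were compared per gene by a two-sided exact binomial test on genes with at least 10 counts over both, with library sizes scaled by TMM (edgeR 4.0.16, factors 1.02 and 0.978) and Benjamini-Hochberg adjustment at 0.05. With no residual degrees of freedom, the quasi-likelihood test of edgeR could not be fitted. Log2 ratios had 0.5 added to each count. The labels give both libraries as technical replicates of biological replicate 1. The p-values of the binomial test measure counting error between them, and no spread between animals could be measured. Alternatives were DESeq2 1.42.0 size factors, total counts, other count minimums, posterior mean counts, the older table, edgeR's exact test and GC trends (lowess, span 0.3). Scripts were tested on simulated data. All other computing used R 4.3.3 and scipy 1.17.1. C2H2 fingers were searched in translated coding sequences of the annotation, and RefSeq promoter windows of GRCm38.p6, the same assembly as mm10, were cut to the bases before the start. The members and lists were chosen with earlier results of these data known. Every member could be named, with values in each library for those with a mean of at least 10 TPM, a role in lymphocytes or a called log2 ratio of at least 0.58 in size. Genes outside the family came only from the lists.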

Additional observations from a re-analysis of the deposited data

How the results depend on the processing

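The number of detected members was 34, and between 31 and 38 under the other minimums and with the posterior mean TPM. It was 34 without either technical replicate. The median level of 11.7 TPM was 10.1 to 11.8 TPM when 1 library was left out, 11.4 with the posterior mean and 13.9 over detected members only. The 2 members lower in technical replicate 2 became 5 with total counts, 1 with no count minimum, 0 in the older gene table, 6 with the GC trend removed and 7 with the local GC trend removed, an alternative chosen after seeing the data. With edgeR's exact test at a dispersion of 0.01, 6 members differed, 6 higher and 0 lower. At the measured dispersion 0 differed, 0 higher and 0 lower, while 103 of all genes did. The measured dispersion came from the same libraries that were tested, so few calls were built in. Higher members numbered 7 to 9 under the scalings, count minimums, posterior mean counts, older table and GC trends. Zbtb7b reversed to -0.16 with the GC trend removed and to -0.26 with the local GC trend removed, and Zbtb44 reversed to 0.87 in the older table. The cause was not tested. Zbtb39 lost its call at similar ratios by the exact binomial test: 0.89 with no count minimum (adjusted p = 0.0534), 1.14 in the older table (0.0703), 0.81 with the GC trend removed (0.0537) and 0.71 with the local GC trend removed (0.0984). Leading transcripts were the same in 21 of 31 members by posterior mean percent and in 20 of 24 at a minimum of 5 TPM. No paired analysis was possible because there was 1 group. Depth limits the members under 1 TPM, with at most 54 counts a library.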
